A study of Rattus norvegicus with 4 samples.

Results

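The genes *Apoe*, *Apod*, *Clu*, *Abca1*, *Abcg1*, *Nr1h2*, *Nr1h3*, *Lpl*, *Lcat* and *Pltp*, were followed as the apolipoproteins and sterol export genes of cultured astrocytes. A gene was taken when a non-control probe carried its name or a RefSeq transcript of it, and all 10 genes were found, with 12 probes out of 41012 probes for 35731 genes. Each had 1 probe, except *Lpl* and *Pltp* with 2 each. All 10 also passed the filter on dim probes that left 21361 genes to be tested.

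RNA was compared on 4 rat whole-genome arrays read in 2 colours, to find astrocyte genes that respond to neurons. The astrocytes were grown from the cortex of Wistar rat pups at P1 in serum-containing medium. The neurons plated on them, in supplemented Neurobasal medium, came from the hippocampus of mouse embryos at E18. CC is the co-culture of both cell types left as it was. CC-CJ is the co-culture after cold jet, in which a stream of 1 mL ice-cold PBS was driven over the well and repeated 3 times so that neurons detached. AA-CJ is astrocytes that were kept without neurons under similar culture conditions and also received cold jet. Every array carried CC-CJ in Cy3, against AA-CJ in Cy5 on 2 arrays and against CC in Cy5 on the other two. No dye swap was made, so an effect of the dye on 1 array cannot be told apart from one of the culture, whereas CC and AA-CJ shared the Cy5 dye. The study's methods describe replicate arrays as different pools of animals, and the series text as biological replicates that each combine several independent samples, so that p-values measure the spread between these pooled samples only. The culture day of the array samples and whether the arrays shared a CC-CJ extract are not given in the sources used here. Rat probes also read mouse mRNA in CC and in what cold jet left behind, and how well they bind it was not tested.

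Astrocytes are the main source of lipoprotein particles in the brain. ApoE forms the protein shell of these particles, the ATP-driven transporters ABCA1 and ABCG1 load cholesterol and phospholipid onto them, and neurons take them up through receptors of the LDL receptor family. The nuclear receptors LXRα and LXRβ, which sense oxysterols, are known to drive transcription of *Apoe*, *Abca1* and *Abcg1*. LCAT esterifies cholesterol on the particle, PLTP moves phospholipid between particles, and lipoprotein lipase releases fatty acids from them.

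Between 50.1% and 62.6% of probes were well above background per channel. Of 14 astrocyte markers on the array, 13 were well above background in all 8 readings (4 of CC-CJ, 2 of AA-CJ and 2 of CC). In the comparison of CC-CJ with AA-CJ, limma called 3.1% of all genes tested at an adjusted p under 0.05. This share was 2.36% for CC-CJ with CC and 2.66% for CC with AA-CJ. Values are log2 differences after loess normalization of each array, which sets the median gene near 0, and levels are log2 intensities normalized between arrays. The levels of 2 different probes are not comparable. Where groups of readings are said not to overlap, the share of all genes that do so is not given here. Such a statement describes the readings only.

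Between CC-CJ and AA-CJ, limma called 3 of the 10 genes, against 3.1% of all genes tested. These were *Apoe*, *Abca1* and *Apod*, each higher in CC-CJ after loess, although *Apoe* turned its sign when arrays were only centred on their median. *Apod* passed the filter on dim probes only through the co-cultures, and 2 of the 3 calls, *Apoe* and *Abca1*, were left when signal well above background was required in all channels. With the replicate number as a block, limma called 1 of the 10, *Apoe*, and 0.796% of all genes. None of the 10 was called lower after loess. Median centring called 7, of which *Apoe*, *Clu*, *Nr1h2*, *Nr1h3*, *Lcat* and *Pltp* were lower. That setting called 62% of all genes and moved their median to -0.48. *Apoe* was 1.87-fold and *Abca1* 1.55-fold higher in the RNA of CC-CJ. There 4 of 11 microglia and macrophage markers were also called higher, while 3 had a negative difference (given further on). Their part in these values was not tested. *Apod* was 1.48-fold higher at a spot near background in AA-CJ, so that its size is uncertain. *Abcg1* was at 1.69-fold and did not pass the test. The remaining members differed by at most 0.28 on the log2 scale, and the median over the 10 genes was 0.06 against -0.02 over all genes tested. Between CC-CJ and CC, 0 of the 10 were called by limma, against 2.36% of all genes, and 3 had an unadjusted p under 0.05, as 16.9% of all genes had.

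**Figure D1:**
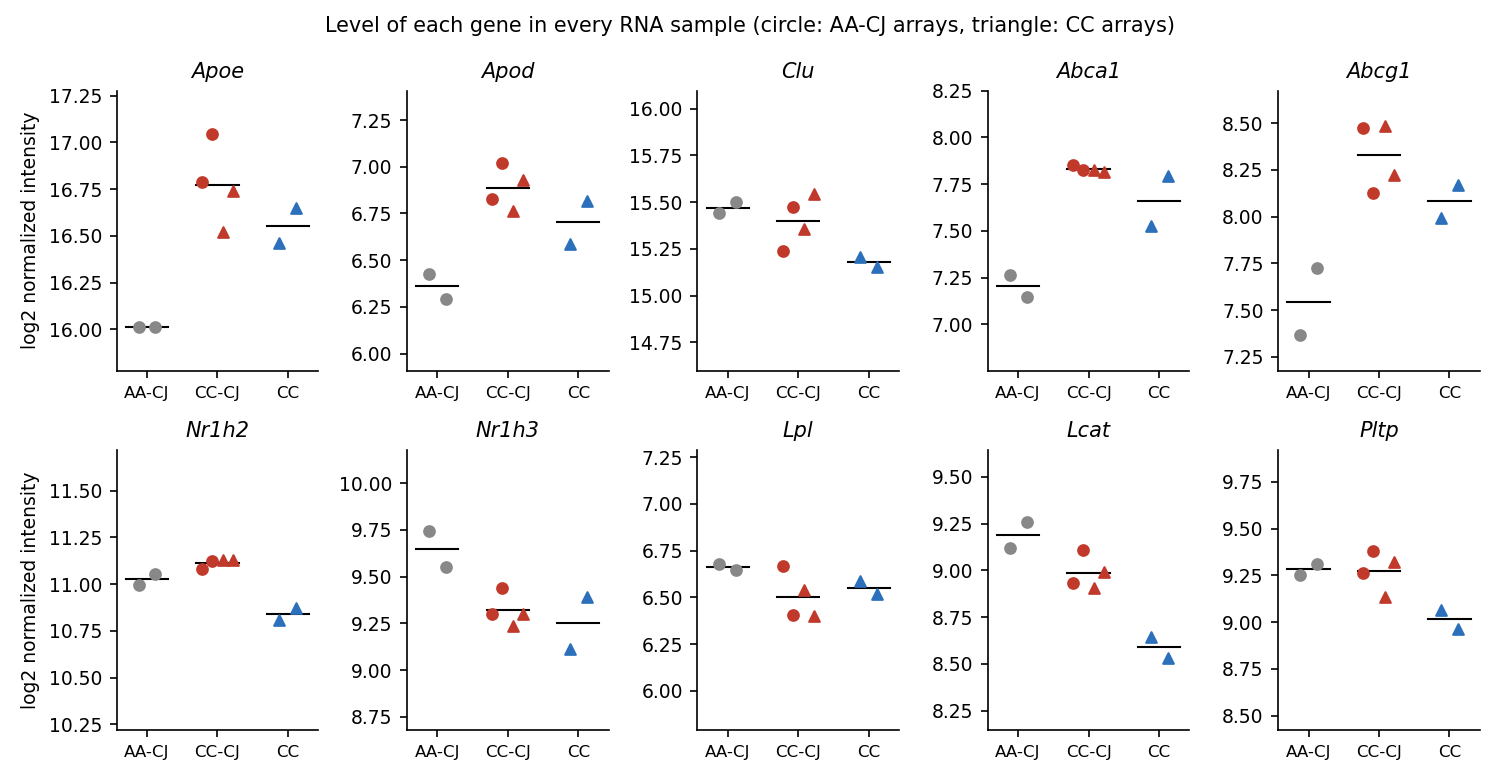
Level of each of the 10 genes as log2 intensity after loess and normalization between arrays (y axis, every panel spanning the same range) in AA-CJ, CC-CJ and CC (x axis), with 1 point per reading and a line at the mean. Circles are readings from the arrays of CC-CJ with AA-CJ and triangles those from the arrays of CC-CJ with CC. For *Apoe*, *Apod*, *Abca1* and *Abcg1* both AA-CJ points lie below all CC-CJ and CC points. The share of all genes separated in this way is not given here.

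*Apoe*, which encodes apolipoprotein E, was read by 1 probe at chr1:79003795-79003854 (rn4); a further probe described as the rat gene for apolipoprotein E, and 1 described as similar to lipoprotein lipase, are outside the naming rule and were not well above background on any array. Its log2 level in CC-CJ was 16.79, 17.04, 16.52 and 16.74, in AA-CJ 16.01 and 16.01, and in CC 16.46 and 16.65. Both AA-CJ readings were below every reading of either co-culture, while CC and CC-CJ overlapped. The difference between CC-CJ and AA-CJ was 0.78 on one array and 1.03 on the other, which gave a mean of 0.90 ± 0.093 (SE, n = 2 arrays; limma adjusted p = 0.00956). When the arrays were centred on their median without loess, the sign turned and *Apoe* was at -0.99, in a setting where 62% of all genes were called. In Agilent's own log ratio, where 0.36% of all genes were called, *Apoe* was at 0.99 and not called (limma adjusted p = 0.0958). Against CC, CC-CJ differed by 0.06 and 0.09 on single arrays and by 0.08 in the mean (95% interval -0.15 to 0.30; limma adjusted p = 0.719). Median centring turned this difference to -1.50 (limma adjusted p = 7.63e-05).

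The comparison of CC with AA-CJ, in which both RNAs are in the same dye, put *Apoe* 1.78-fold higher in CC. Its log2 difference was 0.83 ± 0.131 (SE), with 0.68 to 0.97 over the 4 pairings of arrays (limma adjusted p = 0.0272). *Apoe* was the 1 member of 10 called there, against 2.66% of all genes. This call was lost with any 1 of 3 arrays left out, at limma adjusted p of 0.0595 to 0.0732, and kept without the first array of CC-CJ with AA-CJ (0.0274). With the replicate number as a block it was lost as well (0.0694), whereas the call of CC-CJ over AA-CJ was kept (0.0363). The difference of CC from AA-CJ stayed positive under median centring but was not called (0.51, limma adjusted p = 0.147). The call was also lost with a normexp offset of 10 (0.83, limma adjusted p = 0.0854) and in Agilent's log ratio (0.84, limma adjusted p = 0.201).

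The *Apoe* spot was bright enough that both colours were read from the low-gain scan on all 4 arrays, and no reading of a member was saturated. At this brightness loess added 1.89 to the log2 ratio of CC-CJ over AA-CJ relative to median centring. *Clu* is also a bright spot and received 1.76, and of its readings only those in Cy5 came from the low-gain scan.

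*Apod* encodes apolipoprotein D, a lipocalin that binds small lipids and sterols and is known from glia. Its probe lies at position 890897 to 890956 of the unplaced chr11_random in rn4. The log2 level was 6.83, 7.02, 6.76 and 6.93 in CC-CJ, 6.43 and 6.29 in AA-CJ, and 6.59 and 6.82 in CC. AA-CJ was again the lowest group without overlap, and its second reading was not well above background, so that the probe passed the filter through the co-cultures alone. Against that dim reading no exact size can be given for the second array or for the mean. CC-CJ exceeded AA-CJ by 0.40 and 0.73 on the arrays, a mean of 0.56 ± 0.101 (SE, limma adjusted p = 0.0412). Without either of these arrays the gene was no longer called (limma adjusted p = 0.0668 and 0.145). The size moved with the handling of background, to 1.01 with a normexp offset of 10 (adjusted p = 0.0438) and to 2.02 in Agilent's own log ratio (adjusted p = 0.106). With the replicate number as a block the adjusted p was 0.0941. Differences of 0.14 from CC-CJ to CC and of 0.42 from CC to AA-CJ were not called (limma adjusted p = 0.514 and 0.199).

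*Clu* encodes clusterin, also called apolipoprotein J, which rides on brain lipoproteins beside ApoE. Its level was 15.24, 15.47, 15.36 and 15.54 in CC-CJ, 15.44 and 15.50 in AA-CJ, and 15.21 and 15.15 in CC on the log2 scale. AA-CJ lay within the range of CC-CJ, and both CC readings were below all others. The difference of CC-CJ from AA-CJ was -0.12 with a 95% interval of -0.35 to 0.12, so that a rise of the size seen for *Apoe* lies outside it. CC-CJ was above CC by 0.27 (unadjusted p = 0.028; limma adjusted p = 0.239), and CC was below AA-CJ (log2 difference -0.39; limma adjusted p = 0.214). A further probe that the array describes as similar to clusterin, outside the naming rule and seen well above background in all 8 readings, gave 0.09 and -0.15 for CC-CJ over AA-CJ and 0.17 and 0.82 for CC-CJ over CC on single arrays.

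The RefSeq table for GRCr8 gave windows of 250 bases before to 50 bases after the start for 7 of the 10 genes. They are shown for the 3 genes called in CC-CJ with AA-CJ, so that the sequence around the start can be set beside the shared direction. Motifs were chosen with results known and searched on both strands. They were an LXR-type repeat of 2 half-sites NGGTNA in tandem, 4 bases apart, the stricter repeat of AGGTCA, the single half-site AGGTCA, the E-box CACGTG, the sterol element TCACNCCAC, the GC box GGGCGG and the TATA box TATAAA. Capitals mark matches. Of the 3 starts listed for *Apoe*, the window with 2 GC boxes close to the start is printed.
Apoe promoter, chr1:88484650-88484949 (GRCr8, minus strand): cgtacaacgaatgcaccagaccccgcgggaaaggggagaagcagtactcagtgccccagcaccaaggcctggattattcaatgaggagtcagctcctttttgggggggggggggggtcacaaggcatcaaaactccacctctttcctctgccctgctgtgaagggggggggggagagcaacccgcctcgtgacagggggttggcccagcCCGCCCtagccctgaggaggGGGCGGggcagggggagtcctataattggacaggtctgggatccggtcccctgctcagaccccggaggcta
Apod promoter, chr11:82935970-82936269 (GRCr8, plus strand): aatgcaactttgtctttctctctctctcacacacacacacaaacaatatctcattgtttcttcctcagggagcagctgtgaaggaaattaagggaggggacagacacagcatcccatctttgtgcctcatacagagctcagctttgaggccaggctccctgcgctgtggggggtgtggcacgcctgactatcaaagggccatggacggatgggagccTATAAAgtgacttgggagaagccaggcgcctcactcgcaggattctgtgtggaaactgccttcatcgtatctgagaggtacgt

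The *Apoe* window held GGGCGG at -41 to -36 (on the reverse strand) and at -21 to -16 from the start, a motif in 33.1% of all 33469 windows of this length. The *Apod* window held TATAAA at -33 to -28, as 14.2% of all windows do somewhere. Neither held any of the other motifs. A match is a description of the letters and no evidence of binding.

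*Abca1* encodes the transporter that hands cholesterol to lipid-poor apolipoproteins, and its probe lies at chr5:70493613-70493672 (rn4). The 4 CC-CJ readings of its log2 level were 7.85, 7.83, 7.83 and 7.81, the AA-CJ readings 7.27 and 7.15, and the CC readings 7.52 and 7.79. AA-CJ was below all co-culture readings, and the CC-CJ readings lay above both CC readings. The arrays gave 0.59 and 0.68 for CC-CJ over AA-CJ, with a mean of 0.63 ± 0.097 (SE; limma adjusted p = 0.0283). This call was lost without either array of the comparison (limma adjusted p = 0.103 and 0.0906), and with the replicate number as a block (0.0773). The difference was 0.10 under median centring (limma adjusted p = 0.561), 0.86 with an offset of 10 (0.0442) and 0.99 in Agilent's log ratio (0.118). CC-CJ was above CC by 0.30 on one array and by 0.02 on the other and was not called (mean 0.16, limma adjusted p = 0.443). CC exceeded AA-CJ by 0.47 ± 0.137 (SE; limma adjusted p = 0.15).

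The window of *Abca1* was the only one of the 7 genes with the tandem repeat of NGGTNA, which 0.675% of all windows hold. The match reads on the reverse strand from -70 to -55. It is followed upstream by the E-box at -149 to -144, present in 6.42% of windows, and a GC box at -165 to -160, with a TATA box at -32 to -27.
Abca1 promoter, chr5:72596424-72596723 (GRCr8, minus strand): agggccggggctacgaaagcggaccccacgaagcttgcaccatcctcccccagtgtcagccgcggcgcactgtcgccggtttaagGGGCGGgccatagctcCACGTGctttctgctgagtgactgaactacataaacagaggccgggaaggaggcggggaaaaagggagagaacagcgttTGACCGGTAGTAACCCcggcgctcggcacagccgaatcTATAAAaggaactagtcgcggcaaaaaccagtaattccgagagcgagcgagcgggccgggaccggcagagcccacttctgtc

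The strict repeat of AGGTCA, present in 0.00598% of windows, AGGTCA alone (16.2%) and TCACNCCAC (1.12%) were in no member's window. A half-site outside these 300 bases would not be seen.

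*Abcg1* encodes the transporter that adds cholesterol to particles already carrying lipid. Its log2 level was 8.48, 8.13, 8.48 and 8.22 in CC-CJ, 7.37 and 7.72 in AA-CJ, and 7.995 and 8.17 in CC. AA-CJ did not overlap with either co-culture. The arrays disagreed on the size, with 1.11 and 0.40, and the mean of 0.76 ± 0.179 (SE) was not called (limma adjusted p = 0.0714). It was called without the second array of the comparison (1.11, adjusted p = 0.0266) and not without the first (0.40, adjusted p = 0.306). It was also called at 0.0331 when the 2 arrays of the comparison were fitted alone, at 0.0345 after local regression on intensity and position, and at 0.0427 in the authors' processed values. CC-CJ differed from CC by 0.27 (limma adjusted p = 0.488) and CC from AA-CJ by 0.49 (adjusted p = 0.372).

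**Figure D2:**
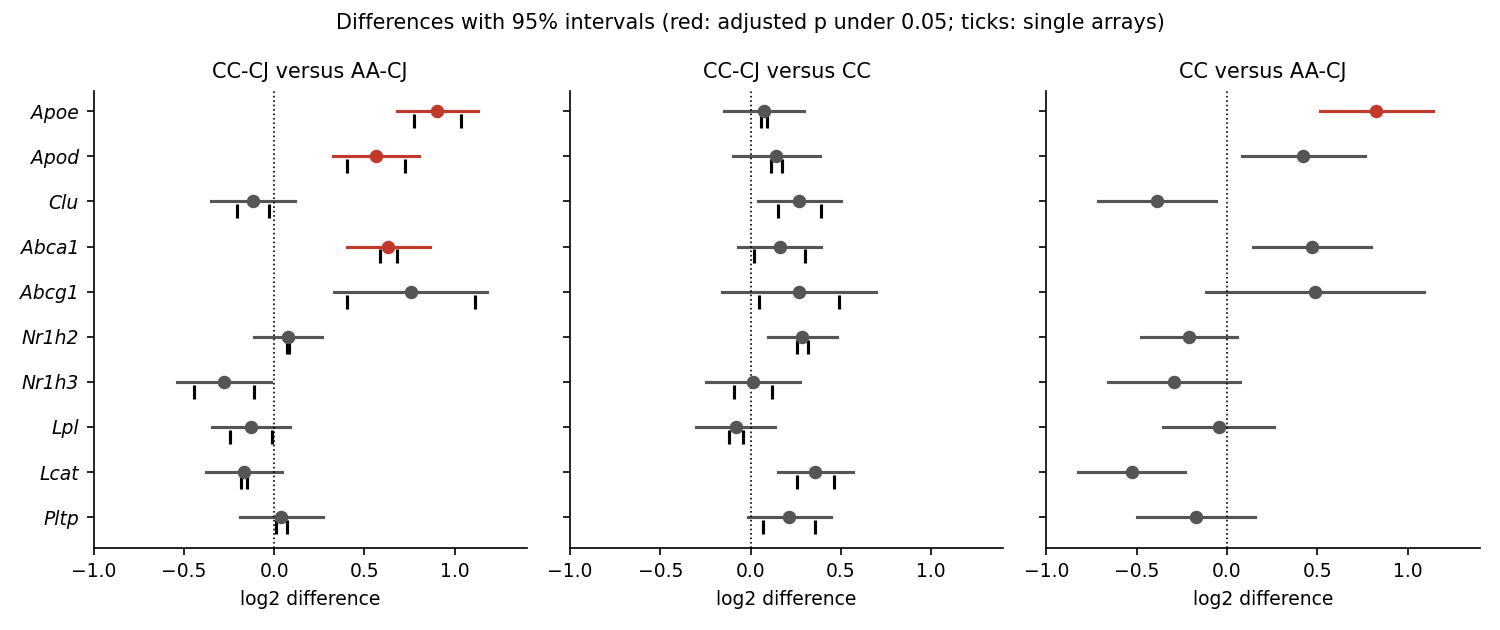
Log2 difference (x axis) of each of the 10 genes (y axis) in the 3 comparisons, with 95% intervals from limma; red marks an adjusted p under 0.05 and short ticks give the single arrays. *Apoe*, *Apod* and *Abca1* are red in CC-CJ versus AA-CJ, no gene is red in CC-CJ versus CC, and *Apoe* alone is red in CC versus AA-CJ.

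*Nr1h2* and *Nr1h3* encode the receptors LXRβ and LXRα that switch on the sterol export genes. The log2 level of *Nr1h2* was 11.08, 11.13, 11.13 and 11.13 in CC-CJ, 10.997 and 11.05 in AA-CJ, and 10.81 and 10.87 in CC. CC was the lowest group without overlap, and AA-CJ was slightly below CC-CJ. CC-CJ differed from AA-CJ by 0.08 (95% interval -0.11 to 0.27; limma adjusted p = 0.614) and from CC by 0.29 (95% interval 0.10 to 0.48; unadjusted p = 0.00901, adjusted p = 0.145).

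For *Nr1h3* the log2 level was 9.30, 9.44, 9.23 and 9.30 in CC-CJ, 9.74 and 9.55 in AA-CJ, and 9.11 and 9.39 in CC. AA-CJ was the highest group and did not overlap with the others, the reverse of the order seen for the export genes. CC-CJ was lower on both arrays, by -0.44 and -0.11, and the mean of -0.28 did not pass the test (95% interval -0.54 to -0.02; limma adjusted p = 0.196). The comparison with CC gave 0.12 and -0.09 on single arrays.

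Among the proteins that remodel the particle, no gene was called in any of the 3 comparisons. *Lcat*, which encodes the cholesterol esterifying enzyme, had log2 levels of 8.94, 9.11, 8.90 and 8.99 in CC-CJ, 9.12 and 9.26 in AA-CJ, and 8.65 and 8.53 in CC. The order was AA-CJ, then CC-CJ, then CC, with no overlap between them. CC-CJ exceeded CC by 0.26 and 0.46 (mean 0.36 ± 0.088 SE; unadjusted p = 0.00507, limma adjusted p = 0.113). CC was below AA-CJ (log2 difference -0.53 ± 0.124 SE; limma adjusted p = 0.0938). After local regression on intensity and position the adjusted p was 0.0388 and 0.0484, and in the authors' processed values 0.0308 and 0.0437. CC-CJ and AA-CJ were closer, at -0.17 (adjusted p = 0.313).

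*Pltp*, for phospholipid transfer protein, had levels of 9.14 to 9.38 in CC-CJ, 9.25 and 9.31 in AA-CJ, and 8.96 and 9.07 in CC on the log2 scale. Only in this average of 2 probes did CC stand below the others. One probe had CC at 9.92 and 10.19 with AA-CJ at 10.02 and 9.89. The other had CC at 8.21 and 7.73 with a CC-CJ reading of 8.15. The 2 probes of *Pltp* also pointed in opposite directions for CC-CJ over AA-CJ, one at 0.31 and one at -0.23. Their mean of 0.04 (limma adjusted p = 0.846) therefore describes neither.

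*Lpl*, for lipoprotein lipase, was read near background, with CC-CJ readings of 6.40 to 6.67, AA-CJ readings of 6.68 and 6.65 and CC readings of 6.58 and 6.52 on the log2 scale. AA-CJ lay above CC, CC-CJ overlapped with both, and only 2 of the 4 CC-CJ readings were well above background. One of its 2 probes was printed 10 times on each array. Over these spots the log2 ratio of CC-CJ over AA-CJ was -0.24 ± 0.117 and -0.35 ± 0.060 (SD over 10 spots each), while the other probe gave 0.22 and -0.13. That SD shows the scatter between spots of 1 array at low brightness. The gene's mean difference was -0.13 (95% interval -0.34 to 0.09; limma adjusted p = 0.457).

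In CC-CJ versus CC, 9 of the 10 members had a positive difference, from 0.01 to 0.36, and *Lpl* was at -0.08, while 56.2% of all genes tested had a negative one. This is the same dye layout on both arrays, and the median over the members of 0.19 became -0.67 under median centring, which moved the median of all genes to -0.59. In that setting 8 members were called and all 8 were lower, while 67.1% of all genes were called. No direction common to the members is therefore given for this comparison.

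Removal of neurons and of other cells was measured with marker genes on the same arrays. Of 14 neuron markers tested, 10 were called lower in CC-CJ than in CC and all 14 had a negative difference (median -1.80). Against AA-CJ, 5 of the 14 were called higher in CC-CJ and 10 had a positive difference. Of 11 microglia and macrophage markers, 7 were called lower in CC-CJ than in CC and 10 had a negative difference (median -0.53). Among those called, *Aif1* and *Adgre1* entered the test through CC alone, so that their calls are no independent support. Against AA-CJ, 4 of the 11 were called higher in CC-CJ and 8 had a positive difference. Of these 4, *C1qa* and *Trem2* passed the filter through the co-cultures alone. The others, *Tyrobp* and *Laptm5*, were well above background in all readings. The summed intensity of the microglial list was 1793 to 2216 in CC-CJ, 1282 to 1445 in AA-CJ and 3728 to 3771 in CC, while *Itgam* and *Cx3cr1* were not well above background on any array. Microglia also express *Apoe* and sterol exporters, and the part of microglial and remaining neuronal mRNA in the members' values was not tested. *Apoe*, *Apod*, *Abca1* and *Abcg1* had differences of 0.08 to 0.27 between CC-CJ and CC after loess, none of them called. In RNA from mixed cells, fewer cells of a type and less RNA per cell cannot be told apart.

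Of 14 astrocyte markers, *Aqp4* was called higher for CC-CJ versus AA-CJ (log2 difference 0.51, limma adjusted p = 0.031), with a median of -0.03 over the list, and 0 were called for CC-CJ versus CC and CC versus AA-CJ (0 and 2 had an unadjusted p under 0.05). This and the other called markers are named after their values were seen. For meningeal fibroblast markers it was 1 of 7, *Ptgds*, which was higher in CC-CJ (log2 difference 1.05, limma adjusted p = 0.031). The list had a summed intensity of 125800 to 131700 in CC-CJ and 132300 to 136700 in AA-CJ. Choroid plexus and ependymal markers had 2 of 6 called, *Foxj1* (1.30, limma adjusted p = 0.00179) and *Dynlrb2* (0.53, 0.0314), both higher in CC-CJ, with summed intensities of 14020 to 15050 in CC-CJ and 10120 to 12100 in AA-CJ. No oligodendrocyte lineage marker of 11 and no endothelial or pericyte marker of 4 was called in that comparison. In limma, 2 and 3 of them had an unadjusted p under 0.05, as 22.6% of all genes had. The 4 endothelial or pericyte markers all had a positive difference (median 0.26). With cold jet, 2 of the 11 oligodendrocyte lineage markers and 2 of the 7 fibroblast markers were called lower in CC-CJ than in CC. Of the endothelial or choroid plexus and ependymal markers, 0 were called (limma, with 1 and 2 of them at an unadjusted p under 0.05). Among the oligodendrocyte lineage calls, *Mag* was well above background in CC alone and entered the test through it.

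**Figure D3:**
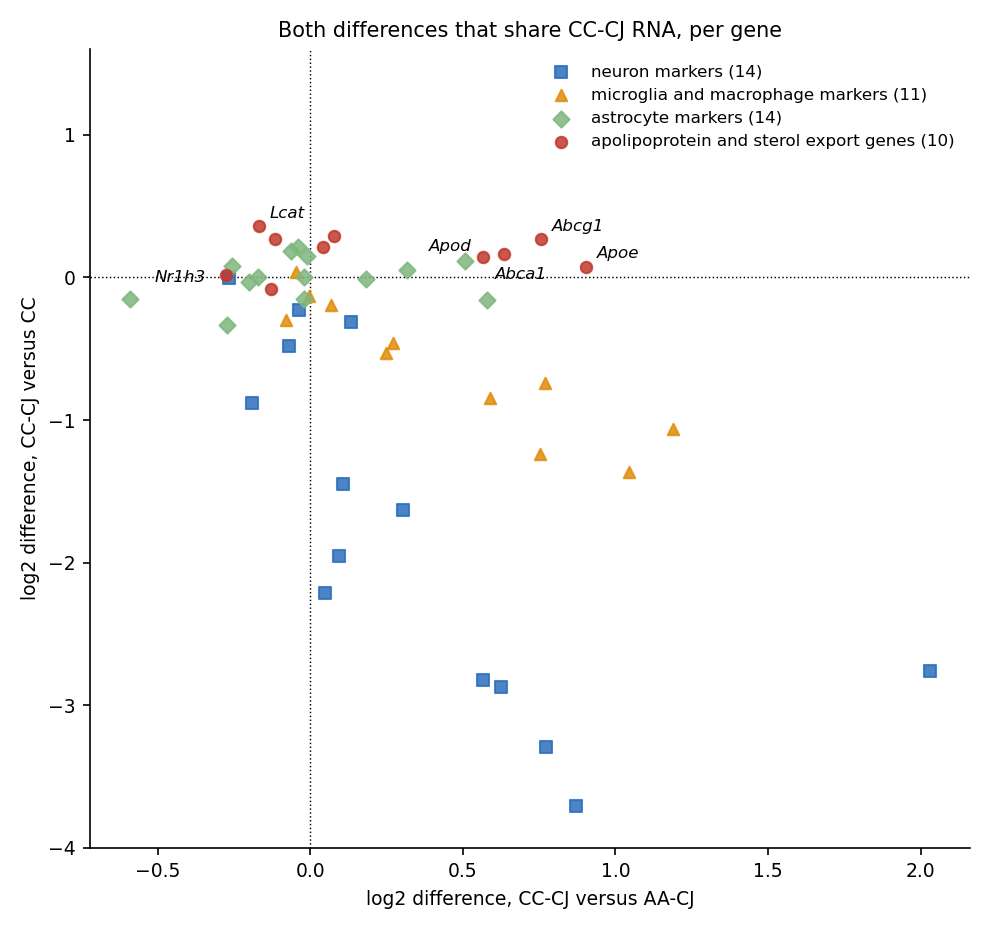
Log2 difference of CC-CJ versus CC (y axis) against that of CC-CJ versus AA-CJ (x axis) for the 10 members and for neuron, microglia and astrocyte markers, 1 point per gene; both axes use CC-CJ RNA. Neuron and microglia markers extend downward to -3.70 and -1.36, whereas the 10 members lie between -0.08 and 0.36 on that axis.

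The other genes of sterol and lipoprotein handling were taken from 7 lists. In CC-CJ versus AA-CJ, 0 were called of 6 other apolipoproteins, 9 receptors and uptake genes, 5 other transporters of the ABCA and ABCG families, 11 LXR partners and coregulators, 6 other LXR targets, 16 genes of intracellular sterol handling and 4 lipases and cofactors that could be tested with limma. Over these 57 genes, 10 had an unadjusted p under 0.05, of which 5 belonged to intracellular sterol handling and 4 to the other LXR targets, while 22.6% of all genes tested had such a p. Medians of these lists ran from -0.06 to 0.16, the highest being the other LXR targets with single genes from -0.26 to 0.35. The only gene of these lists called in the other comparisons was *Rxrg*, which encodes RXRγ, a partner with which LXR forms its dimer. *Rxrg* was well above background in CC and in neither CC-CJ nor AA-CJ, and entered the test through CC alone, so that its calls are no independent support. It was at least 1.76-fold higher in CC than in CC-CJ (limma adjusted p = 0.00431), a bound that sets CC-CJ at its own signal or at the lowest one well above background, whichever was higher. For CC over AA-CJ (limma adjusted p = 0.0105) the same bound, taken from levels across arrays, was 2.21-fold and exceeded the fitted log2 difference of 0.93, so that the size is unsettled.

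The study's selection rule was applied to the loess ratios used here, not to the ratios the study normalized itself. The rule's criterion that replicate probes of an mRNA give comparable results was left out. A probe had to lie beyond the mean plus or minus 2 SD of all probes on both arrays of CC-CJ with AA-CJ. *Apoe* and *Abca1* met this as higher, the upper limits being 0.47 and 0.43, and neither was left out for a fall with cold jet; the same 2 genes met it in the authors' processed values. *Apod* missed the limit on the first array with 0.40 and *Abcg1* on the second with 0.40. With 1.5 SD in place of 2, all 4 of these genes met it. The share of all genes that met the rule is not given here, so these counts are not set against it.

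**Figure D4:**
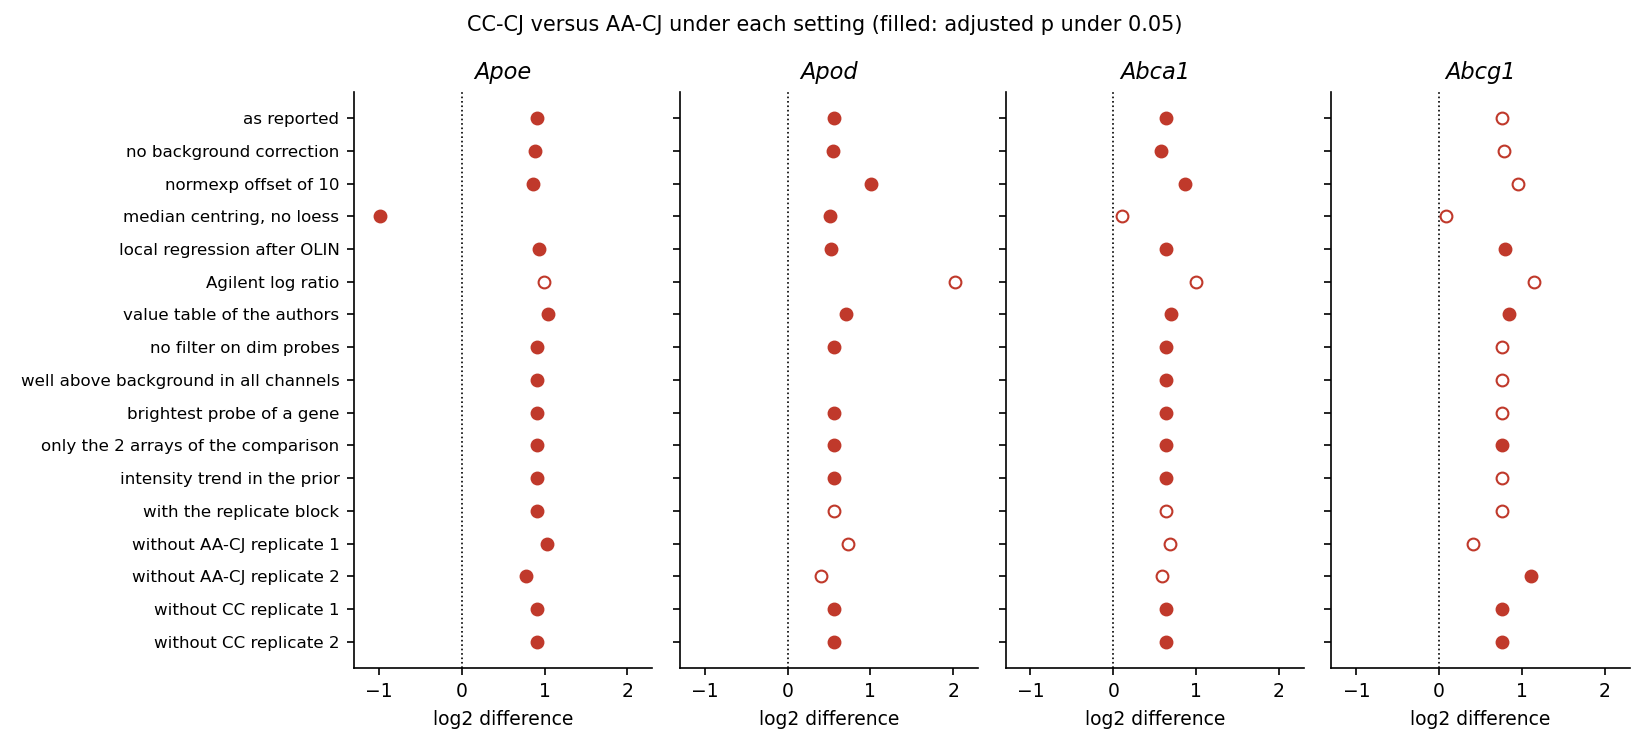
Log2 difference of CC-CJ versus AA-CJ (x axis) for *Apoe*, *Apod*, *Abca1* and *Abcg1* under each processing setting and with each array left out (y axis); filled points have an adjusted p under 0.05. Median centring without loess takes *Apoe* to -0.99, while every other setting leaves the 4 genes at or above 0.40 except *Abca1* and *Abcg1* under median centring.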

How the data were processed

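RNA was extracted with Trizol, amplified and labelled with Cy3 or Cy5, and hybridized to Agilent 4x44K arrays that lay on 1 slide. The authors deposited scanner tables of Feature Extraction 9.5.1.1 with the intensity of each spot on a linear scale, Agilent's log10 ratio of Cy5 over Cy3, and a table of processed log2 values after OLIN and OSLIN; the last was found by correlation (0.923 to 0.969 per array) to run as Cy5 over Cy3, and both ratios were turned to Cy3 over Cy5. Its columns have medians of -0.02 to 0.01, its scale against the ratios computed here had slopes of 0.97 to 1.27, and how it was centred is not given in the sources used here. Probe positions are those of rn4.

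Mean signals were corrected by normexp (offset 50) and normalized by loess (span 0.3) in limma 3.58.1 under R 4.3.3; control spots and 121 to 179 outlier spots per array were left out. Spots and then kept probes of a gene were averaged. A probe was kept if at least 1 of the 3 RNAs showed it well above background each time it was hybridized. lmFit and eBayes gave a coefficient per comparison with a common spread (2 residual and 4.71 prior degrees of freedom), and p-values were adjusted by Benjamini-Hochberg over 21361 genes. CC versus AA-CJ is the difference of both coefficients. Precision is limited by the number of arrays, 2 for each comparison. The RefSeq table named 10835 of 16321 probes that carry such an accession, and other probes are called as in the scanner tables. The local regression was fitted with locfit 1.5.9.12. The limma fit alone was tested on simulated log2 ratios, and the steps before it were not. Members, gene lists and motifs were chosen with earlier results of these data known. All members are named with each probe, and of other pathway lists up to 4 called genes per comparison. Of marker lists, counts and defining markers below background are given. Chosen after their values were seen, the 4 markers called between CC-CJ and AA-CJ outside the neuron and microglia lists are named. Called markers are also named where the filter admitted them through the co-cultures or CC alone, with *Tyrobp* and *Laptm5* beside them. Alternatives covered background correction, offset, normalization, source of the values, dim-probe filter, choice of probe, arrays in the fit, prior, replicate block and each array left out.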

Additional observations from a re-analysis of the deposited data

Results flagged for a closer look

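The log2 level of *Nr1h2*, which encodes LXRβ, had 1 of its 4 CC-CJ readings apart from the others. The reading on the first array of CC-CJ with AA-CJ was 11.08 and the other three were 11.13, so that the gap made up 0.95 of the whole range, above the critical value for 4 samples. The range itself was small, with an SD of 0.023. Chance alone marks about 1 in 20 groups, and 10 genes were examined in this way.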

How the results depend on the processing

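Over all alternatives run, 416 of the values of single members kept their direction and their side of the threshold. A further 18 turned their sign, whether called or not. Of values that kept their sign, 13 passed the threshold only under an alternative and 17 only as reported. Some that turned were also called only under the alternative, among them *Nr1h2* and *Pltp* for CC-CJ versus AA-CJ under median centring. The cause was not tested. These counts hold repeats. Leaving out an array of the other comparison gave the same values as fitting the 2 arrays of a comparison alone. Centring each array on its median without loess changed the most. For CC-CJ versus AA-CJ it called 7 members, 1 of them higher, and 62% of all genes. There it turned *Apoe* to -0.99, *Nr1h2* to -1.15 and *Pltp* to -0.93, with *Clu* at -1.88, *Nr1h3* at -1.31 and *Lcat* at -1.13 also called lower. For CC-CJ versus CC it called 8 members and 67.1% of all genes. In this comparison it turned *Apoe* to -1.50, *Clu* to -1.21, *Nr1h3* to -1.01, *Nr1h2* to -0.89, *Pltp* to -0.75, *Lcat* to -0.59, *Abcg1* to -0.56, *Abca1* to -0.53, *Apod* to -0.017 and *Lpl* to 0.0019. For CC versus AA-CJ it called 0 members and 3.66% of all genes. With Agilent's log ratio, 0 members were called in each of the 3 comparisons (77 genes of all in CC-CJ versus AA-CJ, where *Apoe* was at 0.99 with an adjusted p of 0.0958), and *Clu* turned to 0.0563 for CC-CJ versus AA-CJ, as it did in the authors' values (0.0334). Local regression after OLIN and the authors' values each called 1 member (*Lcat*) for CC-CJ versus CC, with 2.63% and 3.32% of all genes. For CC versus AA-CJ each called 2 (*Apoe* and *Lcat*), with 2.95% and 3.09% of all genes. An offset of 10 left 0 called for CC versus AA-CJ (*Apoe* adjusted p = 0.0854). The brighter probe alone turned *Pltp* to 0.16 for CC versus AA-CJ. A limit of 1.5 SD let 4 members meet the criteria of the study that were applied, in place of 2.

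With each array left out in turn, the median over the members was 0.0481 to 0.0704 for CC-CJ versus AA-CJ. It was 0.102 to 0.188 for CC-CJ versus CC and -0.137 to -0.0564 for CC versus AA-CJ. Which members were called moved as well in CC-CJ versus AA-CJ and CC versus AA-CJ, as given with these genes. *Nr1h3* ranged from -0.0889 (without the first array of CC-CJ versus CC) to 0.119 in that comparison, and *Lpl* from -0.161 to 0.0703 (without the second array of CC-CJ versus AA-CJ) for CC versus AA-CJ. With 1 array left in a comparison, its spread was taken from the other comparison.

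Whether the replicate numbers pair the arrays is unsettled. The labels tie them to nothing shared, and ratios of same-numbered arrays deviated with a correlation of -0.112 over 21361 genes, which are not independent. The CC-CJ levels of the same number, in contrast, deviated together (0.45 over 24857 probes, and in the same direction for all 10 members), and the Cy5 levels oppositely (-0.395). With the number as a block, 1 member (*Apoe*) was called for CC-CJ versus AA-CJ, 0 for CC-CJ versus CC and 0 for CC versus AA-CJ, and 170, 306 and 294 of all genes; it changed the calls of *Apod*, *Abca1* and, for CC versus AA-CJ, *Apoe*, and no other member's. With the numbers crossed, an alternative chosen after seeing the data, the block called 4, 0 and 1 members and 1492, 849 and 828 genes.

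In the comparison of CC-CJ with CC, where limma called no member, 3 (*Clu*, *Nr1h2* and *Lcat*) had an unadjusted p under 0.05, as 16.9% of all genes did. Signal over background limited *Apod* and *Lpl*, which were not well above background in every reading and drop out when that is required.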
